A study of Danio rerio with 12 samples.

Results

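Genes of white blood cells were followed in bulk RNA-seq libraries of zebrafish ovarian follicles: macrophage genes, antigen presentation genes, genes of neutrophils and of the phagocyte oxidase, pan-leukocyte genes, lymphocyte genes and inflammatory cytokines. The list of 37 gene symbols was matched to the Ensembl gene IDs of the deposited table by symbol. It reached 44 of the 32057 gene IDs, and 36 of the 37 symbols had at least 1 ID. The exception was mpx, the neutrophil myeloperoxidase, which has no value here. A total of 43 gene IDs had at least 10 counts summed over the 12 libraries and are the members described below. They are 21 macrophage, 3 antigen presentation, 5 neutrophil and oxidase, 7 pan-leukocyte, 5 lymphocyte and 2 cytokine gene IDs. The symbols mpeg1.1 and mpeg1.2 reached 3 IDs named MPEG1, and mfap4.1 reached 8 IDs named MFAP4. Reads could be split among such copies where their sequences are alike, which was not examined, so values of single MPEG1 and MFAP4 IDs are uncertain.

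The study compared follicles at the primary growth stage, the earliest growth phase of the zebrafish oocyte, between fish with 1 disrupted copy of cdkn1a and wild-type fish. cdkn1a encodes a cyclin-dependent kinase inhibitor, the homologue of mammalian p21. Per the series' design text, homozygous mutants die as embryos, so heterozygotes stood for the mutation. All fish were of the AB strain. The 4 groups of 3 libraries were cdkn1a +/- (HE) and cdkn1a +/+ (WT) follicles at 8 months post-fertilization (mpf), and HE and WT follicles at 50 days post-fertilization (dpf). The labels do not say from how many fish a library came, so the p-values measure the spread between these libraries, which may be technical in part.

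Leukocytes reside in and around the ovarian follicle. Macrophages take up dying cells and debris, depend on signals through the Csf1 receptor, and carry complement C1q and scavenger receptors. Neutrophils hold lysozyme and, like macrophages, an NADPH oxidase that makes superoxide. Cells that present antigen load peptides on MHC class II molecules with the help of the invariant chain CD74, and lymphocytes signal through Lck, Zap70 and receptors that share the common gamma chain.

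Library totals ranged between 31044931 and 96839220 counts. Values are CPM (counts scaled to a common library size) on TMM-scaled library sizes. A level of 3 counts, the limit below which a level cannot be told from 0, was worth 0.031 to 0.106 CPM. This limit was highest in the HE 50 dpf libraries, at 0.092 to 0.106 CPM, beside 0.049 to 0.089 CPM in WT 50 dpf. A count of 0 in HE 50 dpf therefore bounds a level less tightly than in the other groups. cdkn1a itself had 0.397 to 0.651 CPM in HE and 0.668 to 1.13 CPM in WT follicles at 8 mpf, and 0.422 to 0.519 CPM in HE and 3.37 to 3.87 CPM in WT follicles at 50 dpf. It passed the test as lower in HE at 50 dpf (log2 fold change -2.94 ± 0.28 SE, edgeR adjusted p = 6.79e-06) and not at 8 mpf (-0.68 ± 0.26 SE, adjusted p = 0.0679). All 17 oocyte markers were counted in every group, with a summed level of 13464 to 43646 CPM over the 12 libraries. The 21 follicle cell markers summed to 175 to 259 CPM. The sum of all leukocyte members was 85.8 CPM in HE and 146 CPM in WT follicles at 8 mpf, and 91.3 CPM in HE and 123 CPM in WT follicles at 50 dpf.

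Of the 43 members, 37 passed edgeR's filter on low counts and were tested with all 18834 genes that passed. The other 6 were csf1rb, a second Csf1 receptor gene; tnfa, tumor necrosis factor; ikzf1, a lymphoid transcription factor; and 3 MFAP4 copies. Their highest level in any library was 0.293 CPM. csf1rb and tnfa reached at most 0.0827 CPM in HE and 0.182 CPM in WT follicles at 8 mpf, and had no count in any of the 6 libraries at 50 dpf.

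At 8 mpf, HE follicles had less RNA of most macrophage genes than WT follicles. Of the 17 macrophage IDs tested, 9 were lower at 50 dpf than at 8 mpf in both genotypes, beside 20.7% of all genes tested. Of the 37 members tested, 18 were lower in HE at 8 mpf at an adjusted p under 0.05 by edgeR's quasi-likelihood test, and 1 was higher. That is 48.6% lower, beside 15.5% of all 18834 genes tested, and 2.70% higher, beside 12.6% of all genes. The members were chosen with earlier results of these data known. Their shares beside those of all genes are therefore a description and not a test of the list. The median log2 fold change of the 37 was -0.95, and that of all genes was 0.008. At 50 dpf, 14 members were lower in HE (37.8%, beside 21.2% of all genes) and 2 were higher (5.41%, beside 19.6% of all genes), with a median of -0.53 beside -0.07 over all genes. With genes at 0 in a whole group set to the bound that 3 counts allow, the 50 dpf median was -0.33. Counted by ranges, 20 members at 8 mpf had every HE library below every WT library, beside 23.5% of all genes, and 2 had every HE library above, also beside 23.5% of all genes. At 50 dpf these counts were 15 below, beside 30.7% of all genes, and 5 above, beside 26.7%. In bulk RNA, fewer cells of a type and less RNA per cell cannot be told apart.

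**Figure D1:**
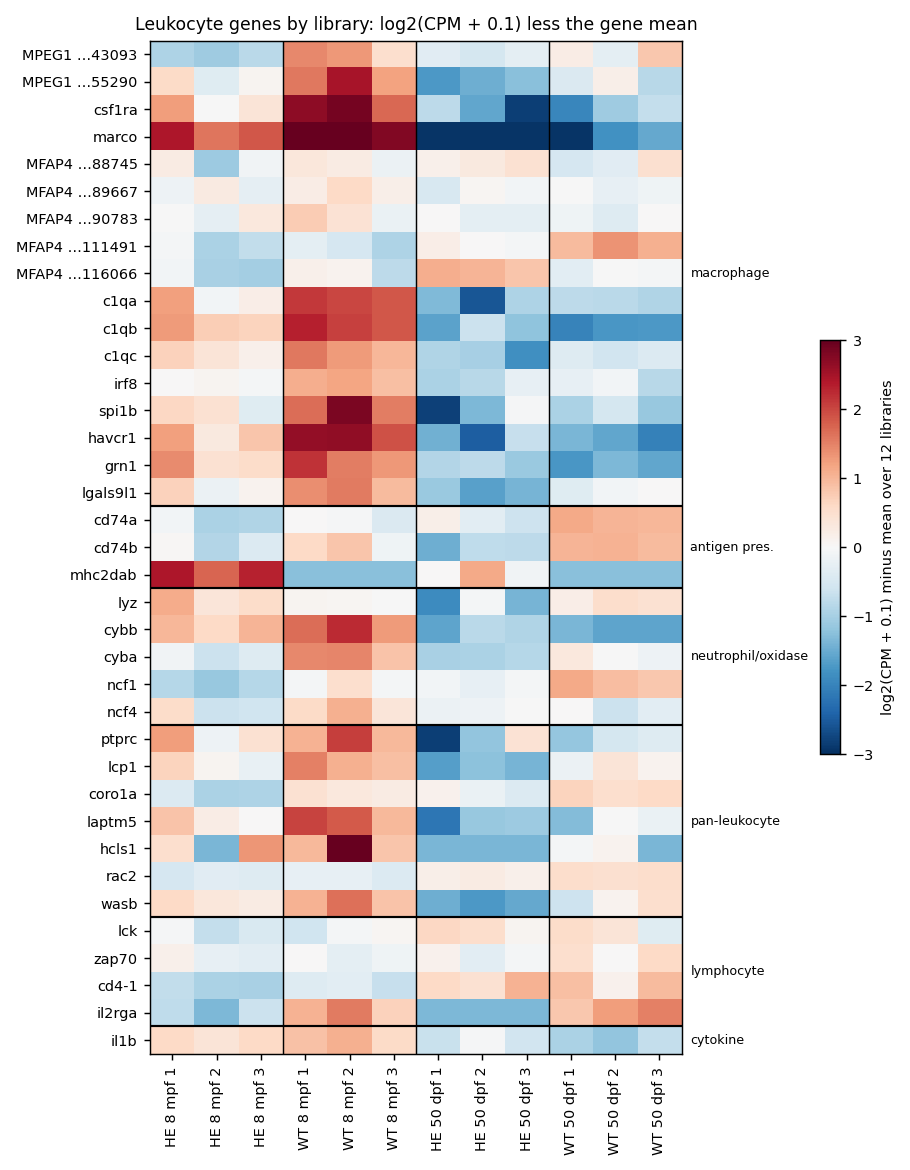
Heat map of the 37 tested leukocyte genes (rows, by class) in the 12 libraries (columns, by group). Colour gives log2(CPM + 0.1) minus the mean of that gene over the 12 libraries, cropped at 3 in either direction. The macrophage block is mostly red in the WT 8 mpf libraries, paler in HE 8 mpf and blue at 50 dpf. The MFAP4 copies and MPEG1 ENSDARG00000043093 depart from this order.

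The members did not all follow 1 order of groups. The highest group mean was in WT 8 mpf for 23 of the 37, in WT 50 dpf for 8, in HE 50 dpf for 4 and in HE 8 mpf for 2. This ranking was not made over all genes, so no share of all genes stands beside these counts. Of the 17 macrophage IDs tested, 14 were highest in WT 8 mpf and none in HE 8 mpf. None of the 4 lymphocyte genes tested was highest at 8 mpf: 2 were highest in HE 50 dpf and 2 in WT 50 dpf. Some of these ranks rested on close means. cd4-1 had 1.03 CPM in HE 50 dpf and 1.02 CPM in WT 50 dpf. il2rga had 0.492 CPM in WT 50 dpf and 0.462 CPM in WT 8 mpf. The lymphocyte gene ikzf1, which was not tested, was highest in WT 8 mpf, at 0.171 CPM. The libraries of a group also moved together over members. At 8 mpf, HE replicate 1 held the highest level of its group for 28 of 37 members. WT replicate 3 held the lowest of its group for 34 of the 36 members counted there. No such ordering stood out at 50 dpf, where no library was the highest of its group for more than 13 members.

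The macrophage genes carried the largest number of calls at 8 mpf, but they were also 17 of the 37 IDs tested. Of these 17, 11 were lower in HE (64.7%, beside 15.5% of all genes tested) and none was higher (beside 12.6% of all genes). Their median log2 fold change was -1.10. Outside the MFAP4 copies, the macrophage IDs summed to 21.1 ± 6.65 CPM in HE and 50.5 ± 11.2 CPM in WT follicles at 8 mpf (SD, n = 3 each). At 50 dpf the same sum was 5.83 ± 0.193 CPM in HE and 8.01 ± 0.730 CPM in WT follicles. The groups did not overlap in this sum at either age.

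**Figure D2:**
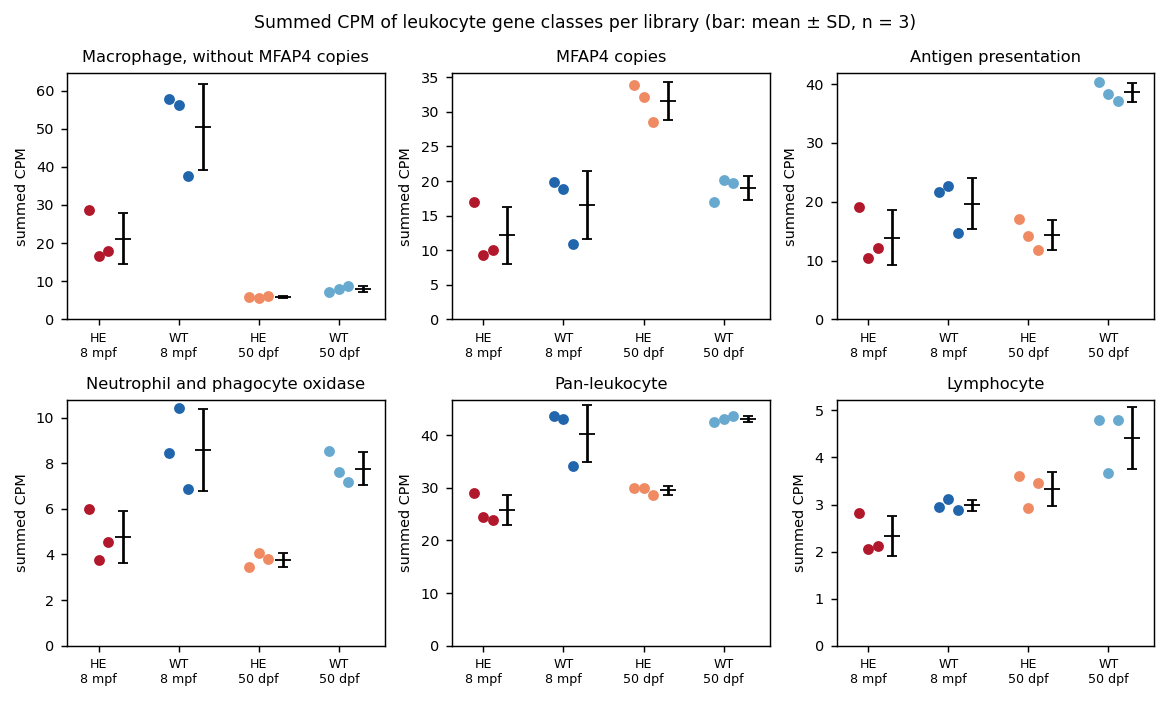
Summed CPM of the members of each class in every library (points), with the mean ± SD of 3 libraries beside them; the single pair of cytokines is left out. The macrophage sum without MFAP4 is 16.7 to 28.8 CPM in HE and 37.6 to 57.7 CPM in WT at 8 mpf and under 9 CPM at 50 dpf, whereas the antigen presentation sum has its highest values in WT at 50 dpf.

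csf1ra encodes the receptor through which colony stimulating factor 1 and interleukin 34 maintain macrophages. It had 1.59, 0.605 and 0.833 CPM in HE and 4.45, 5.13 and 2.25 CPM in WT follicles at 8 mpf (log2 fold change -1.96 ± 0.53 SE, edgeR adjusted p = 0.0155). Every HE library lay below every WT library. At 50 dpf it had 0.312, 0.141 and 0 CPM in HE and 0.0823, 0.238 and 0.330 CPM in WT follicles, levels of at most 18 counts, and the groups overlapped. spi1b, which encodes the myeloid transcription factor Pu.1, had 0.975, 0.861 and 0.448 CPM in HE and 2.15, 4.86 and 1.94 CPM in WT follicles at 8 mpf (-1.99 ± 0.59 SE, edgeR adjusted p = 0.0235), again without overlap, and WT replicate 2 stood above the other WT libraries. At 50 dpf spi1b had 0 to 0.580 CPM in HE and 0.220 to 0.387 CPM in WT follicles. irf8, a transcription factor needed for macrophage formation in zebrafish, had 0.909, 0.954 and 0.854 CPM in HE and 2.0, 2.16 and 1.75 CPM in WT follicles at 8 mpf. Its HE libraries were close together and below all WT libraries (-1.12 ± 0.27 SE, edgeR adjusted p = 0.00773), and at 50 dpf its log2 fold change was -0.32 ± 0.31 SE with overlapping groups.

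The complement C1q genes encode the 3 chains of the molecule that starts the classical complement pathway, and macrophages make most of it. c1qa had 1.29, 0.465 and 0.583 CPM in HE and 2.49, 2.29 and 2.06 CPM in WT follicles at 8 mpf (log2 fold change -1.54 ± 0.45 SE, edgeR adjusted p = 0.0221). c1qb had 2.15, 1.44 and 1.37 CPM in HE and 4.60, 3.73 and 3.27 CPM in WT follicles (-1.22 ± 0.26 SE, edgeR adjusted p = 0.00358). c1qc had 2.61, 2.09 and 1.75 CPM in HE and 4.90, 3.97 and 3.23 CPM in WT follicles (-0.91 ± 0.25 SE, edgeR adjusted p = 0.0151). For all 3 genes at 8 mpf every HE library lay below every WT library. The c1qb call held in all 22 alternatives, and the c1qa call held in 17 of 22. The c1qc call was lost in 3 of 22 alternatives. These left out HE replicate 3 or WT replicate 1, or fitted the authors' normalized values with limma. At 50 dpf the 3 chains differed in direction. c1qa had 0 to 0.214 CPM in HE and 0.220 to 0.247 CPM in WT follicles, on at most 15 counts a library (-0.95 ± 0.68 SE, edgeR adjusted p = 0.284). c1qc was lower in HE, with 0.796, 0.739 and 0.367 CPM, than in WT, with 1.17, 1.01 and 1.16 CPM (-0.83 ± 0.29 SE, edgeR adjusted p = 0.0400), but this call was lost in 7 of 22 alternatives. c1qb had 0.208, 0.493 and 0.305 CPM in HE and 0.132, 0.179 and 0.183 CPM in WT follicles at 50 dpf, so every HE library was above every WT library (1.03 ± 0.39 SE, edgeR adjusted p = 0.0526), on at most 14 counts a library.

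Receptors and effectors of phagocytosis among the macrophage IDs counted above included marco, havcr1 and the 2 tested MPEG1 IDs. marco, a scavenger receptor of macrophages, had 4.07, 2.26 and 2.69 CPM in HE and 6.82, 7.30 and 5.21 CPM in WT follicles at 8 mpf. The groups did not overlap, but the test was just missed (log2 fold change -1.10 ± 0.38 SE, edgeR adjusted p = 0.0514). At 50 dpf marco had no count in any HE library, and 0, 0.119 and 0.165 CPM in WT libraries. havcr1, a receptor for phosphatidylserine on dying cells, had 1.21, 0.582 and 0.896 CPM in HE and 3.36, 3.45 and 2.01 CPM in WT follicles at 8 mpf (-1.70 ± 0.44 SE, edgeR adjusted p = 0.0127), and 0 to 0.244 CPM in either genotype at 50 dpf. The havcr1 call at 8 mpf was lost in 3 of 22 alternatives. These were the run without HE replicate 2 and 2 limma fits of the authors' normalized values. Of the 2 tested MPEG1 IDs, which encode the pore-forming macrophage protein perforin-2, ENSDARG00000043093 had 0.760, 0.675 and 0.833 CPM in HE and 4.33, 3.90 and 2.21 CPM in WT follicles at 8 mpf. This was the largest fold among the called macrophage IDs (-2.19 ± 0.31 SE, edgeR adjusted p = 0.000224). At 50 dpf the same ID had 1.18, 1.02 and 1.22 CPM in HE and 1.79, 1.22 and 2.75 CPM in WT follicles, with overlap (-0.76 ± 0.32 SE, edgeR adjusted p = 0.0722). The other, ENSDARG00000055290, had 0.893, 0.419 and 0.604 CPM in HE and 1.9, 3.63 and 1.45 CPM in WT follicles at 8 mpf (-1.86 ± 0.41 SE, edgeR adjusted p = 0.00465). At 50 dpf ENSDARG00000055290 was also lower in HE, with 0.104, 0.141 and 0.183 CPM, than in WT, with 0.395, 0.655 and 0.275 CPM. That call rested on 3 to 24 counts a library (-1.56 ± 0.56 SE, edgeR adjusted p = 0.0420) and was lost in 6 of 22 alternatives.

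grn1, a granulin gene of zebrafish, and lgals9l1, a galectin 9-like lectin gene, completed the macrophage calls. grn1 had 9.19, 4.70 and 5.06 CPM in HE and 15.6, 10.1 and 8.54 CPM in WT follicles at 8 mpf (log2 fold change -0.85 ± 0.27 SE, edgeR adjusted p = 0.0317), with HE replicate 1 above WT replicate 3. At 50 dpf the order was turned round, with 1.80, 1.94 and 1.53 CPM in HE and 0.938, 1.28 and 1.08 CPM in WT follicles, which did not pass the test (0.68 ± 0.32 SE, edgeR adjusted p = 0.102). lgals9l1 was lower in HE at both ages. It had 3.04, 1.63 and 1.98 CPM in HE and 4.98, 5.66 and 3.67 CPM in WT follicles at 8 mpf (-1.10 ± 0.25 SE, edgeR adjusted p = 0.00503). At 50 dpf it had 0.796, 0.528 and 0.641 CPM in HE and 1.42, 1.73 and 1.87 CPM in WT follicles (-1.34 ± 0.29 SE, edgeR adjusted p = 0.00312), and at neither age did the groups overlap.

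The MFAP4 copies did not behave like the other macrophage IDs. MFAP4 genes encode secreted fibrinogen-like proteins, and one of the zebrafish copies is used as a macrophage marker. ENSDARG00000116066, which alone gave 37.8% of the macrophage summed CPM, was higher in HE at 50 dpf, with 29.9, 28.4 and 24.9 CPM in HE and 11.2, 13.8 and 13.3 CPM in WT follicles (log2 fold change 1.12 ± 0.27 SE, edgeR adjusted p = 0.00581). At 8 mpf it had 13.0, 7.07 and 6.83 CPM in HE and 15.4, 14.9 and 8.06 CPM in WT follicles, with overlap (-0.51 ± 0.27 SE, edgeR adjusted p = 0.177). Another copy, ENSDARG00000111491, went the other way at 50 dpf, with 2.15, 1.87 and 1.77 CPM in HE and 3.70, 4.86 and 3.98 CPM in WT follicles (-1.11 ± 0.26 SE, edgeR adjusted p = 0.00461), and had 0.907 to 1.77 CPM in HE and 0.934 to 1.5 CPM in WT follicles at 8 mpf. The other 3 copies tested passed no test between genotypes or ages. At 50 dpf the summed macrophage CPM with MFAP4 was 37.4 ± 2.63 CPM in HE and 26.9 ± 2.36 CPM in WT follicles, opposite in direction to the sum without MFAP4, so the class total at that age depends on this 1 family.

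**Figure D3:**
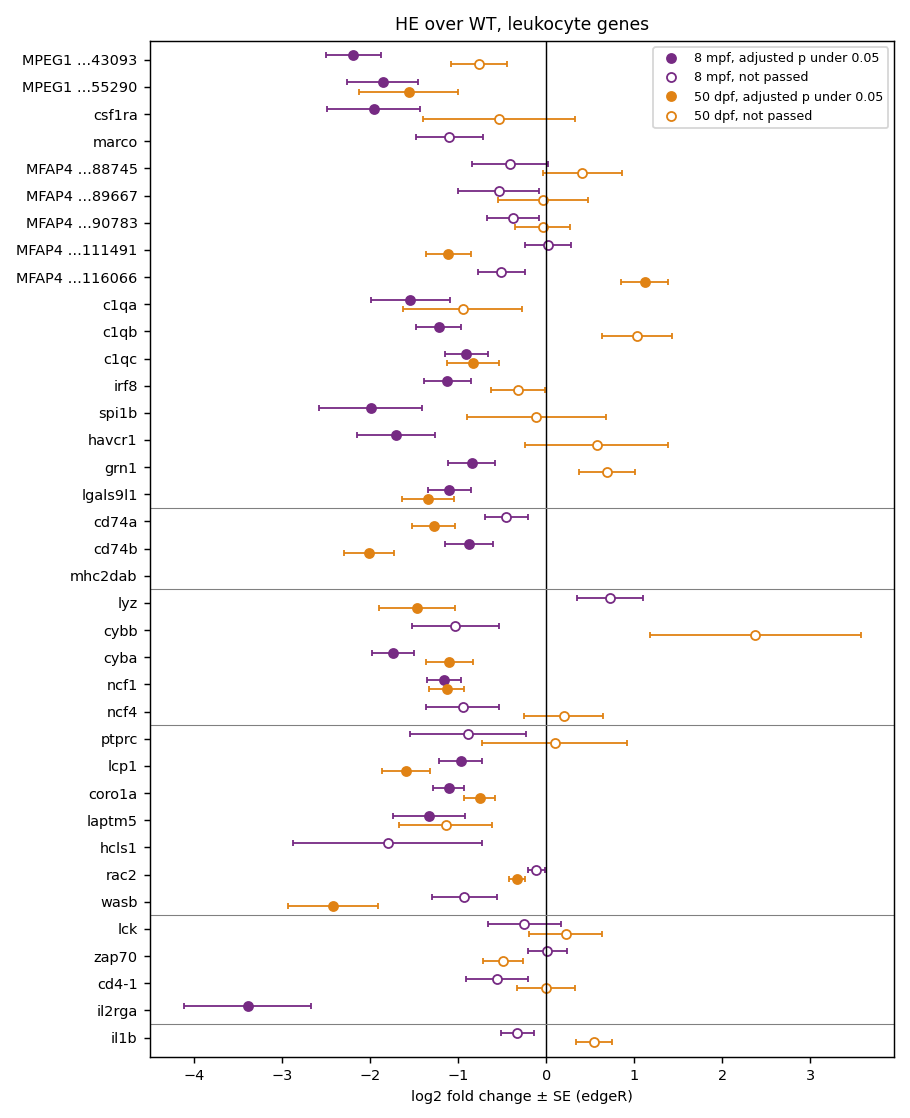
log2 fold change of HE over WT for each tested leukocyte gene, with SE bars, at 8 mpf (purple) and 50 dpf (orange); filled points had an adjusted p under 0.05 by edgeR. mhc2dab at both ages and il2rga, marco and hcls1 at 50 dpf are not drawn because 1 group had no count; at 8 mpf the macrophage points outside MFAP4 run between -2.19 and -0.85.

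Of the 3 antigen presentation genes tested, 2 were lower and 1 was higher in HE at 50 dpf, and 1 was lower and 1 higher at 8 mpf. Over all genes tested, 21.2% were lower and 19.6% higher at 50 dpf, and 15.5% were lower and 12.6% higher at 8 mpf. cd74a and cd74b encode the 2 zebrafish forms of the MHC class II invariant chain. cd74a had 15, 10.7 and 8.55 CPM in HE and 29.2, 27.0 and 26.6 CPM in WT follicles at 50 dpf (log2 fold change -1.28 ± 0.25 SE, edgeR adjusted p = 0.00152). cd74b had 1.9, 3.13 and 3.09 CPM in HE and 11.07, 11.2 and 10.5 CPM in WT follicles at that age (-2.01 ± 0.29 SE, edgeR adjusted p = 0.000184). In both genes the WT libraries were tightly grouped and well above every HE library. At 8 mpf cd74a had 12.4, 6.84 and 6.98 CPM in HE and 13.4, 12.9 and 9.74 CPM in WT follicles, with overlap (-0.46 ± 0.24 SE, edgeR adjusted p = 0.187). cd74b had 5.52, 2.91 and 4.03 CPM in HE and 8.26, 9.75 and 4.93 CPM in WT follicles at 8 mpf and passed the test (-0.88 ± 0.27 SE, edgeR adjusted p = 0.0290), although HE replicate 1 lay above WT replicate 3 and the call was lost in 6 of 22 alternatives.

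The MHC class II beta chain gene mhc2dab was the only member higher in HE at both ages. It had 1.19, 0.698 and 1.07 CPM in HE follicles at 8 mpf and 0.138, 0.422 and 0.122 CPM in HE follicles at 50 dpf. Within HE it was called higher at 8 mpf than at 50 dpf (log2 fold change 2.12, edgeR adjusted p = 0.0186), a call that held in 17 of 22 alternatives. None of the 6 WT libraries had a single count. Against the level that 3 counts a library would give, it was at least 19.8-fold higher in HE at 8 mpf and at least 3.53-fold higher in HE at 50 dpf (edgeR adjusted p = 0.000415 and 0.00368). Its direction was thus opposite to that of cd74a and cd74b, whose products handle the same molecules. No other MHC class II chain gene was among the members, and why the WT libraries held no count was not examined.

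Genes of the phagocyte oxidase were lower in HE at both ages for 2 of the 4 tested, beside 8.65% of all genes tested. cyba, which encodes the membrane subunit that partners the catalytic one, had 1.09, 0.721 and 0.875 CPM in HE and 3.36, 3.42 and 2.23 CPM in WT follicles at 8 mpf (log2 fold change -1.74 ± 0.24 SE, edgeR adjusted p = 0.000183). At 50 dpf it had 0.554, 0.563 and 0.611 CPM in HE and 1.5, 1.16 and 1.05 CPM in WT follicles (-1.10 ± 0.27 SE, edgeR adjusted p = 0.00643). ncf1, which encodes the cytosolic organizer subunit, had 1.26, 1.02 and 1.27 CPM in HE and 2.29, 3.42 and 2.27 CPM in WT follicles at 8 mpf (-1.16 ± 0.19 SE, edgeR adjusted p = 0.000764). Its values at 50 dpf were 2.22, 1.97 and 2.26 CPM in HE and 5.30, 4.59 and 4.24 CPM in WT follicles (-1.13 ± 0.20 SE, edgeR adjusted p = 0.000719). Neither gene had overlapping groups at either age, and both calls held in all 22 alternatives at both ages. cybb, the catalytic subunit, had 0.349 to 0.510 CPM in HE and 0.623 to 1.31 CPM in WT follicles at 8 mpf without passing the test (-1.03 ± 0.50 SE, edgeR adjusted p = 0.144). ncf4, another cytosolic subunit, had 0.302 to 0.810 CPM in HE and 0.709 to 1.2 CPM in WT follicles at 8 mpf (-0.95 ± 0.42 SE, edgeR adjusted p = 0.11).

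The lysozyme gene lyz, a product of neutrophil granules and of macrophages, differed from the oxidase genes. At 50 dpf it had 0.208, 0.986 and 0.336 CPM in HE and 1.2, 1.55 and 1.47 CPM in WT follicles, with every HE library lower (log2 fold change -1.47 ± 0.43 SE, edgeR adjusted p = 0.0164). At 8 mpf it had 2.35, 1.37 and 1.57 CPM in HE and 1.11, 1.08 and 1.02 CPM in WT follicles, with every HE library above every WT library, though it did not pass the test (0.72 ± 0.38 SE, edgeR adjusted p = 0.178). Without HE replicate 3 at 50 dpf the call at that age was lost (adjusted p = 0.0578).

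**Figure D4:**
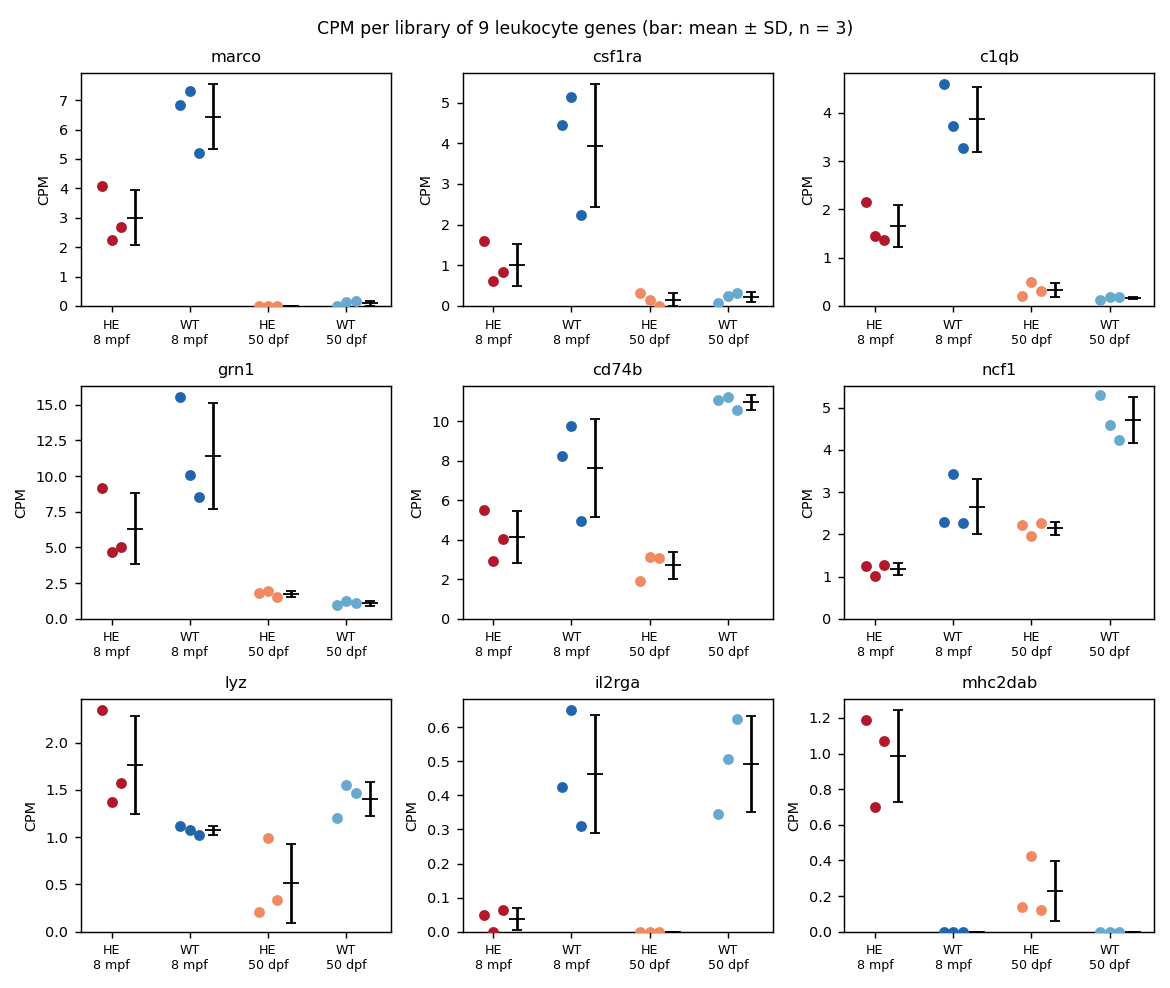
CPM of 9 leukocyte genes in every library (points), with mean ± SD of 3 libraries; axes start at 0. marco, csf1ra, c1qb and grn1 are near their lowest at 50 dpf and higher in WT than HE at 8 mpf; cd74b and ncf1 are highest in WT at 50 dpf; il2rga is near 0 in HE at both ages, and mhc2dab is at 0 in all 6 WT libraries.

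Pan-leukocyte genes were lower in HE for 3 of 7 at 8 mpf, beside 15.5% of all genes tested, and for 4 of 7 at 50 dpf, beside 21.2%, and none was higher. lcp1, encoding the leukocyte actin-bundling protein L-plastin, had 6.35, 4.16 and 3.36 CPM in HE and 11.5, 8.31 and 7.40 CPM in WT follicles at 8 mpf (log2 fold change -0.97 ± 0.24 SE, edgeR adjusted p = 0.0103). At 50 dpf lcp1 had 1.18, 1.62 and 1.44 CPM in HE and 3.46, 5.15 and 4.24 CPM in WT follicles (-1.59 ± 0.27 SE, edgeR adjusted p = 0.000710). coro1a, encoding the actin regulator coronin of leukocytes, had 5.31, 3.63 and 3.69 CPM in HE and 9.78, 8.98 and 8.46 CPM in WT follicles at 8 mpf (-1.11 ± 0.18 SE, edgeR adjusted p = 0.000504). For coro1a at 50 dpf the values were 7.82, 6.16 and 5.32 CPM in HE and 11.5, 10.2 and 10.9 CPM in WT follicles (-0.76 ± 0.18 SE, edgeR adjusted p = 0.00476). Both genes were lower in each HE library than in each WT library of the same age.

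The other pan-leukocyte calls fell at 1 age each. laptm5, a lysosomal membrane protein of blood cells, had 1.84, 1.14 and 0.969 CPM in HE and 4.25, 3.69 and 1.99 CPM in WT follicles at 8 mpf (log2 fold change -1.33 ± 0.41 SE, edgeR adjusted p = 0.0280). wasb, the zebrafish gene of the Wiskott-Aldrich syndrome actin regulator, had 0.104, 0.0704 and 0.0916 CPM in HE and 0.263, 0.506 and 0.697 CPM in WT follicles at 50 dpf, with 2 or 3 counts in each HE library (-2.42 ± 0.51 SE, edgeR adjusted p = 0.00273). rac2 had 20.7, 21.6 and 20.5 CPM in HE and 26.6, 25.7 and 26.6 CPM in WT follicles at 50 dpf, a small difference (-0.33 ± 0.09 SE, edgeR adjusted p = 0.0143) whose call was lost without WT replicate 1 at 50 dpf (adjusted p = 0.0505). In none of these 3 genes did the groups overlap at the age at which it was called. ptprc, the pan-leukocyte antigen CD45, passed at neither age, with 0.535 to 1.57 CPM in HE and 1.28 to 2.86 CPM in WT follicles at 8 mpf. hcls1, a cortactin-like protein of blood cells, ran between 0 and 2.23 CPM, and 1 library, WT replicate 2 at 8 mpf, held that highest value while no other exceeded 0.552 CPM.

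Of 4 lymphocyte genes tested, 1 was lower in HE at each age and none was higher. That is 25%, beside 15.5% of all genes at 8 mpf and 21.2% at 50 dpf, so the count says little about the class. il2rga, which encodes the common gamma chain shared by several interleukin receptors, had 0.0496, 0 and 0.0625 CPM in HE and 0.425, 0.650 and 0.311 CPM in WT follicles at 8 mpf (log2 fold change -3.39 ± 0.72 SE, edgeR adjusted p = 0.00546). At 50 dpf it had no count in any HE library and 0.346, 0.506 and 0.624 CPM in WT follicles, at least 4.90-fold lower in HE (edgeR adjusted p = 0.00124). The HE libraries held at most 6 counts at either age. lck and zap70, kinases of T cell receptor signalling, and cd4-1, a coreceptor of helper T cells also found on some macrophages of fish, passed no test between genotypes. zap70, for example, had 1.33 to 1.88 CPM in HE and 1.37 to 1.70 CPM in WT follicles at 8 mpf. The cytokine il1b, interleukin 1 beta, had 5.24 to 6.02 CPM in HE and 5.93 to 8.44 CPM in WT follicles at 8 mpf (-0.33 ± 0.19 SE, edgeR adjusted p = 0.215). At 50 dpf il1b had 2.46 to 3.84 CPM in HE and 1.70 to 2.37 CPM in WT follicles, without overlap and just short of the threshold (0.54 ± 0.21 SE, edgeR adjusted p = 0.0508).

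Of the 37 members, 9 were lower in HE at both ages, which is 24.3%, beside 8.65% of all genes tested. They were lgals9l1, c1qc, MPEG1 ENSDARG00000055290, cd74b, cyba, ncf1, lcp1, coro1a and il2rga. A further 9 passed as lower at 8 mpf and not at 50 dpf (24.3%, beside 10.7% of all genes called in either direction at 8 mpf only). In either direction 6 passed at 50 dpf and not at 8 mpf (16.2%, below the 23.5% of all genes), and 12 passed at neither age (32.4%, beside 48.4%). Whether the genotype effect itself differed between ages was tested as an interaction. That test was passed by 4 members: 3 with a lower value at 8 mpf (8.11%, beside 6.65% of all genes) and 1 with a higher value (2.70%, beside 6.88% of all genes). The 3 were c1qb (difference of log2 fold changes -2.25 ± 0.47 SE, edgeR adjusted p = 0.00770), MFAP4 ENSDARG00000116066 (-1.63 ± 0.38 SE, edgeR adjusted p = 0.0134) and grn1 (-1.53 ± 0.41 SE, edgeR adjusted p = 0.0284). The other was lyz (2.19 ± 0.57 SE, edgeR adjusted p = 0.0242). The negative share lies near that of all genes, and the positive share lies under it. The other 33 members tested did not pass, so most members called at a single age are not shown to differ between ages. mhc2dab and genes at 0 in a whole group give no usable estimate of this difference.

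With age, 9 of 17 macrophage IDs and 4 of 7 pan-leukocyte genes passed as higher at 8 mpf in both genotypes. None of the 4 lymphocyte genes tested passed as higher in either genotype, which is too few genes to describe the class. In HE follicles 17 of 37 members were higher at 8 mpf (45.9%, beside 28.5% of all genes tested) and 5 were lower (13.5%, beside 25.5%). In WT follicles 21 were higher (56.8%, beside 28.7%) and 6 were lower (16.2%, beside 26.5%). The median log2 fold change was 1.44 in HE, or 0.96 with genes at 0 in a group set to their bound, and 1.14 in WT. Over all genes it was 0.009 in HE and -0.03 in WT. A total of 15 members were higher at 8 mpf in both genotypes, which is 40.5%, beside 20.7% of all genes. By ranges, every 8 mpf library lay above every 50 dpf library for 18 members in HE (beside 32.9% of all genes) and for 21 in WT (32.7%), and below for 8 in HE (29.8%) and 9 in WT (33.6%). The 2 age comparisons share no library.

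Among macrophage IDs, 9 of 17 were higher at 8 mpf in HE (beside 28.5% of all genes tested) and 12 of 17 in WT (beside 28.7%). marco in HE follicles was at least 29.9-fold higher at 8 mpf than at 50 dpf, against the level that 3 counts a library would give. In WT follicles marco was also higher at 8 mpf (6.15 ± 0.55 SE on the log2 scale, edgeR adjusted p = 7.57e-06). Large differences were also measured for havcr1, at 2.88 ± 0.61 SE in HE and 5.15 ± 0.59 SE in WT, c1qb, at 2.30 ± 0.32 SE in HE and 4.55 ± 0.33 SE in WT, c1qa, at 2.67 ± 0.61 SE in HE and 3.27 ± 0.51 SE in WT, and csf1ra, at 2.78 ± 0.73 SE in HE and 4.20 ± 0.64 SE in WT. The age differences of havcr1, c1qb, c1qa and csf1ra all passed edgeR's test, with adjusted p-values of at most 0.00649. Of these 4 genes, the difference between the HE and WT age effects passed the test for c1qb only. irf8 and spi1b did not pass in HE (0.74 ± 0.30 SE and 1.52 ± 0.72 SE) and passed in WT (1.55 ± 0.28 SE and 3.40 ± 0.66 SE), and for neither gene was the difference between genotypes past the threshold. MFAP4 ENSDARG00000116066 was lower at 8 mpf in HE (-1.63 ± 0.27 SE) and had the same level at both ages in WT within its error (0.00 ± 0.27 SE), while MFAP4 ENSDARG00000111491 was lower at 8 mpf in WT (-1.75 ± 0.26 SE).

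**Figure D5:**
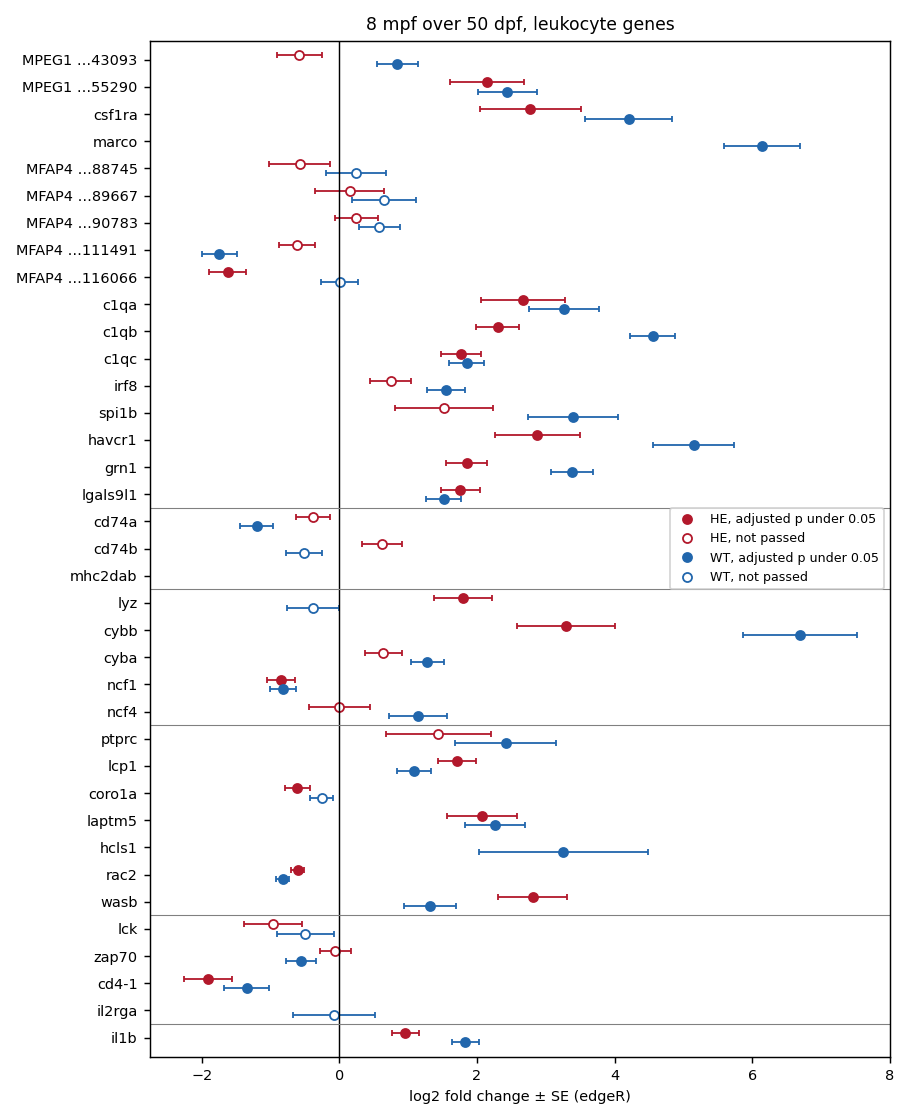
log2 fold change of 8 mpf over 50 dpf for each tested leukocyte gene, with SE bars, in HE (red) and WT (blue); filled points had an adjusted p under 0.05 by edgeR. marco, hcls1 and il2rga in HE are not drawn because HE 50 dpf had no count. mhc2dab is left out in both genotypes because it had no count in WT, although it was counted in HE at both ages. Most macrophage points outside MFAP4 lie right of 0, and rac2, ncf1 and cd4-1 lie left of 0 in both genotypes.

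The oxidase subunits did not share 1 direction with age. cybb had 0.349 to 0.510 CPM in HE and 0.623 to 1.31 CPM in WT follicles at 8 mpf, and at 50 dpf it was close to 0, at most 2 counts in any library. ncf1 was lower at 8 mpf in both genotypes, with log2 fold changes of -0.85 ± 0.20 in HE and -0.82 ± 0.19 in WT (SE) (edgeR adjusted p = 0.00333 and 0.00262). cyba missed the threshold in HE (0.64 ± 0.27 SE, edgeR adjusted p = 0.0626) and was higher at 8 mpf in WT (1.28 ± 0.24 SE, edgeR adjusted p = 0.000639). lyz was higher at 8 mpf in HE (1.80 ± 0.42 SE, edgeR adjusted p = 0.00316) and not in WT (-0.39 ± 0.38 SE, edgeR adjusted p = 0.411).

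The summed pan-leukocyte CPM was not higher at 8 mpf: its mean at 8 mpf was 0.87 times that at 50 dpf in HE and 0.94 times in WT. However, rac2 alone gave 54.6% of the pan-leukocyte summed CPM and was itself lower at 8 mpf. The direction of this sum therefore does not stand for the other genes of the class. The pan-leukocyte genes lcp1, laptm5 and wasb were higher at 8 mpf in both genotypes with log2 fold changes between 1.09 and 2.81. hcls1 was called higher too, but that call was lost in 13 of 21 alternatives in HE and 8 of 22 in WT. coro1a was lower at 8 mpf in HE (-0.61 ± 0.18 SE, edgeR adjusted p = 0.0114), a call lost in 4 of 22 alternatives, and did not pass in WT (-0.26 ± 0.17 SE, edgeR adjusted p = 0.216), where every 8 mpf library was also below every 50 dpf library. rac2 was lower at 8 mpf in both, by -0.61 ± 0.09 SE in HE and -0.83 ± 0.09 SE in WT. cd4-1 was also lower at 8 mpf in both genotypes. Its levels were 0.250 to 0.314 CPM in HE 8 mpf, 0.329 to 0.454 CPM in WT 8 mpf, 0.845 to 1.31 CPM in HE 50 dpf and 0.655 to 1.23 CPM in WT 50 dpf follicles (log2 fold change -1.91 ± 0.35 SE in HE and -1.35 ± 0.33 SE in WT, edgeR adjusted p = 0.000536 and 0.00416). zap70 was called lower in WT (-0.56 ± 0.22 SE, edgeR adjusted p = 0.0454), a call lost in 13 of 22 alternatives, and il1b was higher at 8 mpf in HE (0.96 ± 0.20 SE) and in WT (1.83 ± 0.20 SE).

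The count of members lower in HE at 8 mpf moved with single libraries and with the fit used. Without HE replicate 2, and likewise without HE replicate 3, 11 members were called lower at 8 mpf in place of 18, and without HE replicate 1, the highest of its group, 21 were. The calls of csf1ra, c1qa, spi1b, grn1, cd74b and laptm5 were lost without HE replicate 2 and without HE replicate 3. With limma on the authors' normalized values, 12 members were called lower with 1 added before the log, and 10 with 0.1 added. Both limma fits lost the calls of csf1ra, c1qa, spi1b, havcr1, grn1 and laptm5. The fit with 0.1 added also lost the calls of c1qc and cd74b. Those of MPEG1 ENSDARG00000043093, MPEG1 ENSDARG00000055290, c1qb, irf8, lgals9l1, cyba, ncf1, lcp1, coro1a, il2rga and mhc2dab held in every alternative.

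Other blood cell genes were counted from lists of further markers. Over all genes tested, 15.5% were lower and 12.6% higher in HE at 8 mpf, and 21.2% were lower and 19.6% higher at 50 dpf, and the counts of each list stand beside these shares. Of 22 other macrophage and dendritic cell genes tested, 10 were lower in HE at 8 mpf and none was higher, with a median log2 fold change of -0.91. They included CTSK, a cathepsin, with 2.98 ± 0.375 CPM in HE and 11.3 ± 3.83 CPM in WT follicles, and apoeb, an apolipoprotein E gene, with 36.0 ± 8.44 CPM in HE and 134 ± 45.7 CPM in WT follicles (SD, n = 3 each). At 50 dpf 6 of the 22 were lower and 3 were higher, and apoeb was among the higher ones, with 17.5 ± 2.68 CPM in HE and 8.58 ± 0.361 CPM in WT follicles (1.03 ± 0.24 SE, edgeR adjusted p = 0.00464). Of 13 other neutrophil and mast cell genes, 8 were lower and 1 was higher in HE at 8 mpf, and 2 were lower and 1 was higher at 50 dpf. MMP9 and mmp13a, matrix metalloproteinases, were among the lower ones at 8 mpf (-1.14 ± 0.15 SE and -2.33 ± 0.25 SE), and ALOX5, a lipoxygenase gene, was the higher one, with 0.650 ± 0.177 CPM in HE and 0.0173 ± 0.03 CPM in WT follicles. Of 16 other T and NK cell genes, 5 were lower and 1 higher at 8 mpf and 4 were lower and 2 higher at 50 dpf, where both counts are near or under the shares over all genes. Of 9 B cell genes none passed at 8 mpf. At 50 dpf none was higher, and the share lower was near the 21.2% of all genes, with 2 genes called lower. These were PAX5, a B cell transcription factor, with 0.639 ± 0.188 CPM in HE and 5.54 ± 0.428 CPM in WT follicles, and ighm, the IgM heavy chain, with 0.0438 ± 0.0382 CPM in HE and 2.27 ± 0.589 CPM in WT follicles. Summed CPM of these lists did not always follow the counts. At 8 mpf the HE and WT sums were 2053 and 1974 (macrophage), 61.2 and 133 (neutrophil), 117 and 153 (T and NK) and 813 and 602 (B cell). At 50 dpf they were, in the same order, 5256 and 3439, 60.7 and 62.7, 172 and 158, and 567 and 516. In every group the macrophage and B cell list sums were well above the sum of all leukocyte members given earlier. Which genes dominate these list sums was not examined, nor whether such genes are also expressed in other cells of the follicle. The sums therefore do not stand for the amount of RNA of the named cell types.

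Genes through which leukocytes are called and sustained were likewise listed. Of 18 colony stimulating factors, interleukins, chemokines and their receptors tested, 9 were lower in HE at 8 mpf, beside 15.5% of all genes. None was higher, and the median log2 fold change was -1.80. At 50 dpf 3 were lower and 1 was higher, both under the shares of all genes (21.2% and 19.6%). A chemokine receptor ID named CXCR4 had 1.21 ± 0.151 CPM in HE and 11.0 ± 1.5 CPM in WT follicles at 8 mpf (-3.19 ± 0.16 SE, edgeR adjusted p = 6.87e-08). il34, the second ligand of the Csf1 receptor, was lower in HE at 50 dpf, with 0.139 ± 0.138 CPM in HE and 0.810 ± 0.216 CPM in WT follicles (-2.57 ± 0.62 SE, edgeR adjusted p = 0.00582). Of 28 interferon and innate sensing genes, 11 were lower and 2 higher in HE at 8 mpf, and 15 were lower and 1 higher at 50 dpf, where IRF7, the interferon regulatory factor, had 1.65 ± 0.293 CPM in HE and 22.3 ± 1.72 CPM in WT follicles.

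Markers of other tissues were counted in the same way, and their part in the leukocyte results was not tested. The shares of all genes given above apply to these counts too. At 50 dpf 22 of 23 liver-type plasma protein genes were lower in HE and none was higher; their sum was 37.4 to 45.9 CPM in HE and 316 to 329 CPM in WT follicles, and ahsg2 and TTR had no count in HE. At 8 mpf 1 of the 23 was lower and 12 were higher in HE, with sums of 26.8 to 35.08 CPM in HE and 22.3 to 33.0 CPM in WT follicles. Erythrocyte markers were lower in HE for 2 of 12 and higher for 1 at 8 mpf (23.1 to 41.6 CPM in HE, 31.5 to 39.34 CPM in WT), and lower for 6 and higher for none at 50 dpf (30.8 to 44.6 CPM in HE, 44.5 to 55.4 CPM in WT). Of these, gata1a had no count in HE at either age and hbaa2 had none in HE at 50 dpf. Thrombocyte markers were lower for 3 of 9 and higher for 1 at 8 mpf (34.3 to 50.8 CPM in HE, 106 to 144 CPM in WT), and lower for 4 and higher for 1 at 50 dpf (59.0 to 67.3 CPM in HE, 96.4 to 103 CPM in WT), with ITGB3 at 0 in HE at both ages.

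Stromal markers were lower in HE for 10 of 17 and higher for 1 at 8 mpf (25.4 to 27.1 CPM in HE, 33.5 to 42.4 CPM in WT), and lower for 4 and higher for 3 at 50 dpf (47.9 to 57.5 CPM in HE, 50.0 to 52.2 CPM in WT). Endothelial markers were lower for 5 of 18 and higher for 3 at 8 mpf, where their sum was 40.9 to 48.9 CPM in HE and 28.5 to 34.8 CPM in WT. At 50 dpf 4 were lower and 2 higher, with sums of 45.6 to 47.2 CPM in HE and 36.0 to 40.2 CPM in WT, and both counts lay near or under the shares of all genes at that age. Follicle cell markers were lower for 6 of 19 and higher for none at 8 mpf (175 to 200 CPM in HE, 218 to 247 CPM in WT), and lower for 7 and higher for 1 at 50 dpf (237 to 259 CPM in HE, 234 to 249 CPM in WT). Oocyte markers were lower for 2 and higher for 2 of 17 at 8 mpf, and lower for 2 and higher for 12 at 50 dpf. The oocyte sums were higher in HE without overlap at both ages, with 19485 to 21117 CPM in HE and 13464 to 16074 CPM in WT at 8 mpf and 33320 to 43646 CPM in HE and 21529 to 25144 CPM in WT at 50 dpf. Of the stromal list, LUM, FBLN1 and LOX had no count in HE at 50 dpf and FBLN1 had none in WT at either age; of the endothelial list, lyve1b had no count in any group.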

How the data were processed

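RNA of zebrafish follicles was extracted with TRIzol and made into libraries with a directional kit, per the labels' protocols. The submitters' processing notes name GRCz11, bcl2fastq, FastQC 0.11.5, HISAT2, StringTie and DESeq2 without roles. The authors deposited a table of raw values, taken here as estimated counts because they are whole numbers whose ratio to the second table differs between genes, and a table of normalized values, treated as a signal. For 51.4% of 15798 genes counted in all libraries, the count over the signal was a gene factor times 1 common factor per library (within 0.5%). The normalized table therefore served for an alternative only.

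The counts, whole as deposited, were filtered (filterByExpr), TMM-scaled and tested with edgeR 4.0.16 (quasi-likelihood, R 4.3.3) in 1 fit of the 12 libraries with 5 contrasts, Benjamini-Hochberg adjusted over 18834 of 26339 genes with a count. SEs are the absolute log2 fold change over the root of F. The procedure was also run on counts simulated with a single fixed spread, with changes placed only in better counted genes. That run does not cover members at low counts. Symbols came from a names table that covers 28988 of 32057 gene IDs; MPEG1 and MFAP4 IDs, spi1b and wasb were matched through capital-letter names and grn1 through a RefSeq synonym. The members and all gene lists were chosen with earlier results of these data known. Members past the threshold in a genotype contrast or the interaction are given library by library, and of other lists at most the 4 genes with the smallest p. Alternatives used limma 3.58.1 and DESeq2 1.42.0. SEs and SDs include the spread between libraries, whereas the floors cover counting error only.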

Additional observations from a re-analysis of the deposited data

Results flagged for a closer look

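A difference between the genotype effect at 8 mpf and that at 50 dpf, tested as an interaction in edgeR, marked 4 members for a closer look. c1qb, a chain of complement C1q, had a difference of -2.25 on the log2 scale, with a log2 fold change of HE over WT of -1.22 at 8 mpf and 1.03 at 50 dpf. MFAP4 ENSDARG00000116066 had a difference of -1.63, with -0.51 at 8 mpf and 1.12 at 50 dpf. grn1, a granulin gene, had a difference of -1.53, with -0.85 at 8 mpf and 0.68 at 50 dpf. lyz, lysozyme, had a difference of 2.19, with 0.72 at 8 mpf and -1.47 at 50 dpf. The calls of c1qb and MFAP4 ENSDARG00000116066 held in every alternative. That of grn1 was lost in 6 of 21 and that of lyz in 5 of 21, in each case on leaving out 1 library.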

How the results depend on the processing

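None of the 88 called results changed sign in any alternative run; of the 97 not called, 26 did in at least 1 alternative, as did 5 of 28 ratios of class sums. Of 1930 alternative values for the called results, 128 lost the threshold, and of 2090 for those not called, 76 passed it. The number of members lower in HE at 8 mpf was 10 with limma on log2(authors' normalized value + 0.1). Counted over members with 1 gene ID, 1 member was higher in HE at 50 dpf. Members with a negative interaction numbered 5 with DESeq2. Members with a positive interaction numbered 2 on library size alone, 3 with DESeq2 and 2 with the replicate block. The cause was not tested. On leaving out 1 library at a time, members lower in HE numbered 11 to 21 at 8 mpf and 11 to 15 at 50 dpf, those higher in HE 1 at 8 mpf and 2 to 4 at 50 dpf. Those higher at 8 mpf numbered 16 to 21 in HE and 16 to 22 in WT, those lower 4 to 7 in HE and 5 to 6 in WT, and interactions 2 to 5 negative and 0 to 3 positive. The 4 calls higher in HE at 50 dpf appeared without HE replicate 1 of either age, the 5 negative interactions without WT replicate 3 at 8 mpf or HE replicate 1 at 50 dpf. No positive interaction was left without HE replicate 1 or WT replicate 3 at 8 mpf, or without HE replicate 3, WT replicate 2 or WT replicate 3 at 50 dpf, and it was 3 without HE replicate 2 and 2 without WT replicate 2 at 8 mpf. Same-numbered libraries correlated at -0.159 to 0.105 and not every library correlated best with its own number. With 3 libraries a group this check cannot exclude a pairing, and the main fit used none. With the replicate block 18 members were lower in HE at 8 mpf and 14 at 50 dpf, and hcls1 lost both age calls. On library size alone the median of all genes moved to -0.40 at 50 dpf and -0.17 at 8 mpf for HE over WT and to 0.23 for age in HE; with upper quartile scaling it was -0.15, -0.08 and -0.15. Members under about 20 counts a library limit what the 50 dpf comparison can show.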
